A study of Homo sapiens with 4 samples.

Results

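FANCD2 and FANCI, the enzymes that add and remove their ubiquitin, and the nucleases that act beside them at DNA crosslinks were followed in human mammary epithelial cells with and without a short hairpin RNA (shRNA) against the kinase PAK1. The 10 genes were taken by symbol: FANCD2, FANCI, UBE2T, USP1, WDR48, FAN1, SLX4, ERCC4, ERCC1 and MUS81. They had 14 of the 34127 probes of the array, and 10 of its 27193 gene names. FANCD2 had 3 probes, ERCC4 and ERCC1 had 2 each and the other 7 genes had 1, and 0 further probes carried an older symbol of these genes.

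The arrays compared 2 samples of MCF10A.B2 cells, labelled control, with 2 samples of MCF10A.B2 cells carrying the PAK1 shRNA. MCF10A is a non-tumorigenic breast line, and its B2 derivative carries a chimeric ErbB2 (Her2) receptor that the dimerizer AP1510 switches on. Both groups were starved of serum for 3 h and given AP1510 for 15 min before total RNA was taken, so every array reports on cells with an activated receptor. The shRNA is Tet-inducible according to the series description, which also speaks of cells from separate tumors, whereas the sample labels name the cell line. The control label does not tell parental cells from uninduced shRNA cells, while the study's methods speak of wild-type cells beside those with the shRNA. Here 0 arrays of a non-targeting shRNA were analysed, so a response to the shRNA itself and a response to lower PAK1 cannot be told apart. Nothing in the sample labels says how the 2 samples of a group were obtained, and p-values measure only the spread between these samples, which may be technical. Each PAK1 shRNA sample is bulk RNA, in which fewer cells of a kind and less RNA per cell cannot be told apart.

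A crosslink that ties the strands of DNA together blocks replication forks. The Fanconi anemia core complex, an E3 ubiquitin ligase, works with the E2 enzyme UBE2T to place a single ubiquitin on FANCD2 and on its partner FANCI, and the modified pair clamps on DNA and is needed for the incisions that unhook the crosslink. USP1, bound to its activating partner WDR48, takes the ubiquitin off again. SLX4 is a scaffold that holds the ERCC4-ERCC1 and MUS81 nucleases, and FAN1 is a nuclease that is recruited by ubiquitinated FANCD2. In dividing cells many genes of this pathway are transcribed mostly around S phase.

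The probe sequences say which stretch of each transcript was read. They are printed in lower case on the strand of the transcript, with hg19 coordinates as the array files give them. The FANCD2 probe annotated to both transcript variants on the array, the FANCI probe and both ERCC1 probes are given whole (60 bases), because they carry the falls of the clamp and the rise of ERCC1. The next set gives the first 30 bases of the probes that read 1 FANCD2 variant each and of those of UBE2T and USP1.
FANCD2 A_33_P3257808 (chr3:10114581-10114640, plus strand): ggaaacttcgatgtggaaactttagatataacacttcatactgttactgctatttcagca
FANCI A_32_P95729 (chr15:89858528-89858587, plus strand): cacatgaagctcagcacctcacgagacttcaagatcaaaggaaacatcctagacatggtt
ERCC1 A_33_P3228128 (chr19:45918124-45918183, minus strand): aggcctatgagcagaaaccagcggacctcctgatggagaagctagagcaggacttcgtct
ERCC1 A_33_P3365037 (chr19:45917222-45917281, minus strand): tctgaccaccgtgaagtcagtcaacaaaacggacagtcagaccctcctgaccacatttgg
FANCD2 A_23_P143994, variant 2 (chr3:10143006-10143065, plus strand): agagtttgaaatccgctgtttgcctttctt
FANCD2 A_23_P345678, variant 1 (chr3:10140927-10140986, plus strand): ccaccttagagaactgaaataaaaatagaa
UBE2T A_23_P115482 (chr1:202300906-202300965, minus strand): taggggacttgtcctggttcatcttagtta
USP1 A_23_P11652 (chr1:62917270-62917329, plus strand): ttgggcatggactaatttgtatctgtttaa
The remaining probes lie at chr3:39137740-39137799 for WDR48, chr15:31235016-31235075 for FAN1, chr16:3631344-3631403 for SLX4, chr11:65633599-65633658 for MUS81, and chr16:14046046-14046105 and chr16:14042239-14042298 for ERCC4. Their place in exons or untranslated regions was not analysed here.

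All 4 arrays lay on 1 slide, controls in the first positions and PAK1 shRNA arrays in the next, so slide position and group cannot be told apart. The share of probes well above background ran from 78.9% to 83.2% over the arrays. Replicates correlated at 0.998 in both groups, across probes, with a median absolute log2 difference of 0.0923 between the controls and 0.0815 between the PAK1 shRNA arrays. PAK1 itself had a normalized log2 intensity of 11.19 and 11.27 in control cells and 10.44 and 10.52 in PAK1 shRNA cells. This is a log2 fold change of -0.75 (SE 0.08, limma adjusted p = 0.000139), or 59.5% of the control level. Basal epithelial markers, which MCF10A cells express, were well above background on all 4 arrays in 8 of 8 genes. Genes of other lineages also passed that criterion, with 5 of 6 luminal, 3 of 6 fibroblast, 4 of 4 leukocyte (LYZ had no probe) and 3 of 3 endothelial markers. Of the fibroblast collagens, COL1A1 passed it on all 4 arrays, while COL1A2 and COL3A1 did not pass it on any array.

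The PAK1 shRNA cells had less RNA of most of these genes, and the falls were deepest in FANCD2, FANCI and UBE2T. UBE2T fell 14.9-fold, FANCI 10.8-fold, and FANCD2 between 3.29-fold and 8.94-fold depending on the probe. USP1 fell 2.47-fold and its partner WDR48 did not pass the test. FAN1, SLX4 and ERCC4 fell by less than 2-fold, while ERCC1 and MUS81 were higher. All 14 probes were well above background and below saturation on all 4 arrays.

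Calls were made at 0.05 on limma p-values adjusted by Benjamini and Hochberg's method over the 27420 probes tested. Of the 14 probes, 10 were called lower, 3 were called higher and 1 passed in neither direction. This comparison called many probes in all: 32.5% of the probes tested were lower and 31% higher. A fall of at least 2-fold that passed the test was seen in 6 of the 14 probes and in 8.78% of all probes. The count is 5 of 14 with normexp estimated on all spots, where FANCD2 A_23_P345678 gave -0.97. With the brightest probe standing for each gene, 7 of the 10 genes were lower and 2 higher, against 31.9% and 31.2% of the 21939 genes tested. The 14 probes had a median log2 fold change of -0.67, and all probes one of 0.01. The values of the groups did not overlap in 13 of the 14 probes, and in 82.2% of all probes with values on the 4 arrays, in either direction.

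**Figure D1:**
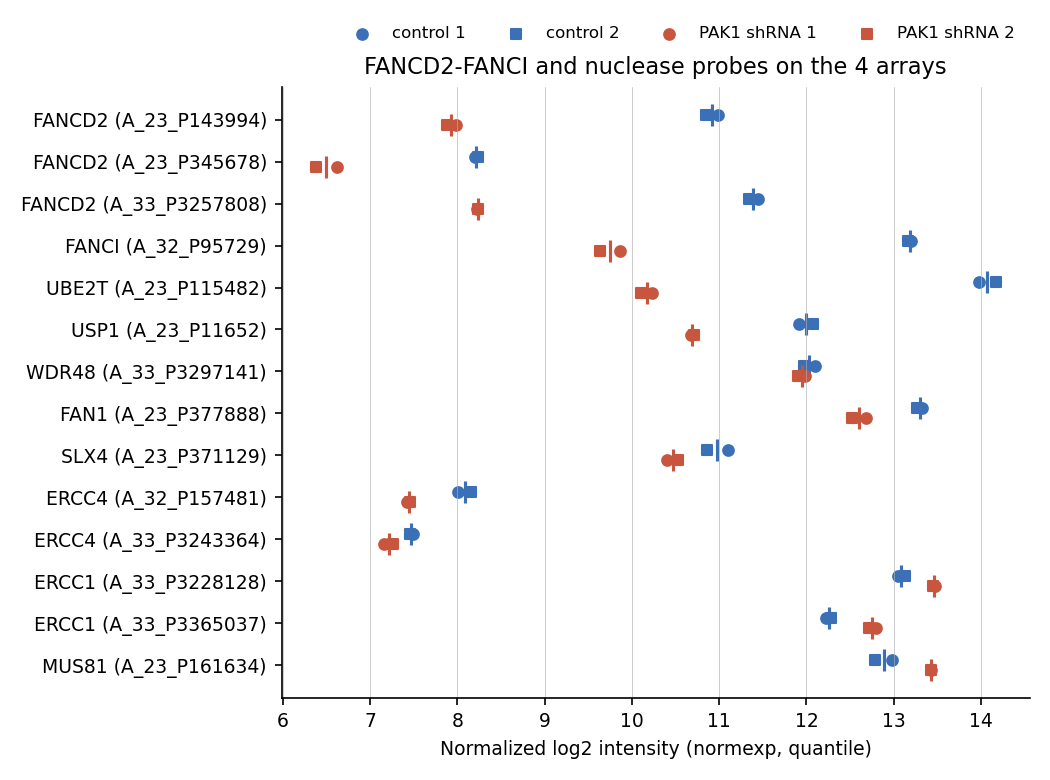
Normalized log2 intensity (horizontal axis) of each of the 14 probes (rows) on the 2 control arrays (blue) and the 2 PAK1 shRNA arrays (red), with a short bar at each group mean. The groups stand apart in every row but that of WDR48, and the widest gaps are those of UBE2T, FANCI and the brighter FANCD2 probes. Levels in different rows come from different probes and are not comparable.

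FANCD2 is the subunit whose ubiquitination marks activation of the pathway. The probe whose array annotation lists both transcript variants, A_33_P3257808, had a normalized log2 intensity of 11.45 and 11.34 in the control samples and 8.23 and 8.24 in the PAK1 shRNA samples. Both PAK1 shRNA values lay far below both control values, and the means were 11.39 ± 0.08 and 8.23 ± 0.01 (SD, n = 2 each). The log2 fold change was -3.16 (SE 0.08, 95% interval -3.34 to -2.98, limma adjusted p = 3.43e-07), and 151 of the 27420 probes fell further. The remaining level was 11.2% of control.

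The FANCD2 probe named for variant 2, A_23_P143994, read 10.98 and 10.85 in control cells and 7.98 and 7.89 in the PAK1 shRNA samples. This gave a log2 fold change of -2.98 (SE 0.08, 95% interval -3.18 to -2.78, limma adjusted p = 5.64e-07). The probe named for variant 1, A_23_P345678, read 8.20 and 8.24 in control cells against 6.62 and 6.38 in PAK1 shRNA cells, again with no overlap. Its log2 fold change was smaller, at -1.72 (SE 0.10, 95% interval -1.95 to -1.49, limma adjusted p = 9.34e-06). The raw signals of this probe lay near the local background in PAK1 shRNA cells. They were 72.1 and 65.2, over local backgrounds of 38 and 45, while its control signals were 358 and 289.

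The 3 FANCD2 probes thus gave different sizes of fall. The log2 fold change of A_23_P345678 was 1.44 less negative than that of A_33_P3257808 and 1.26 less negative than that of A_23_P143994, and A_23_P143994 differed from A_33_P3257808 by 0.18. In each of these pairs the difference between the probes on the control arrays did not overlap that on the PAK1 shRNA arrays, but the smallest p that an exact two-sided permutation test can give with 2 arrays against 2 is 0.333. The size for the dim probe depended on the background correction. It was -2.23 with an offset of 16 in place of 50, -1.98 in the values the authors deposited, and -3.26 with the processed signal of the scanner software scaled to its 75th percentile, where the other FANCD2 probes gave -3.44 and -3.36. With normexp estimated on all spots it went the other way, to -0.97, and the other probes to -2.50 and -2.25. Averaged over its 3 probes, FANCD2 had a log2 fold change of -2.62.

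FANCI, which pairs with FANCD2 on DNA and carries a ubiquitin of its own, had 1 probe. It read 13.20 and 13.17 in control cells and 9.87 and 9.64 in PAK1 shRNA cells, or means of 13.18 ± 0.02 and 9.75 ± 0.16 (SD, n = 2 each). Both PAK1 shRNA samples lay below both controls by far more than replicates differed. The log2 fold change was -3.43 (SE 0.09, 95% interval -3.65 to -3.20, limma adjusted p = 5.17e-07), leaving 9.29% of the control level, and 99 probes fell further. The raw signal of the probe went from 12353 and 9686 to 778 and 656, well over the local background of 44.5 to 54.

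UBE2T, the E2 enzyme that hands ubiquitin to the pair, had the deepest fall of the 10 genes. It read 13.97 and 14.17 in control cells and 10.24 and 10.10 in PAK1 shRNA cells, with means of 14.07 ± 0.14 and 10.17 ± 0.09 (SD, n = 2 each). The log2 fold change was -3.90 (SE 0.10, 95% interval -4.13 to -3.67, limma adjusted p = 3.48e-07), so that 6.69% of the control level remained and 60 of all probes fell further. The intervals of UBE2T, FANCI and the FANCD2 probes did not overlap those of the nucleases.

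The UBE2T and USP1 probes were each printed at 10 spots of an array, which gives a direct view of the error within an array. For UBE2T the raw intensity of the 10 spots ran from 16611 to 24173 (median 21514) in the first control sample and from 14963 to 22297 (median 19996) in the second. In PAK1 shRNA cells it ran from 795 to 1151 (median 1049) and from 727 to 1047 (median 945). The coefficient of variation over spots was 13.5% to 15.0%, and the brightest spot of a PAK1 shRNA array was far dimmer than the dimmest spot of a control array. Spots of an array share 1 labelled RNA and are not replicates of the condition.

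USP1 is the protease that removes ubiquitin from FANCD2 and FANCI. It read 11.91 and 12.08 in control cells and 10.67 and 10.71 in PAK1 shRNA cells, with means of 11.99 ± 0.12 and 10.69 ± 0.02 (SD, n = 2 each). Its log2 fold change was -1.30 (SE 0.08, 95% interval -1.51 to -1.10, limma adjusted p = 1.66e-05), and 40.5% of the control level was left. Over all probes, 5.09% fell further. The 10 spots of an array ran from 4136 to 5738 and from 3730 to 5063 in control cells and from 1148 to 1439 and from 1155 to 1498 in PAK1 shRNA cells, with coefficients of variation of 7.65% to 10.5%.

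WDR48, the partner without which USP1 is a weak enzyme, did not pass the test. It read 12.09 and 11.97 in control cells and 11.99 and 11.91 in PAK1 shRNA cells, and the groups overlapped. The log2 fold change was -0.08 (SE 0.08, limma adjusted p = 0.407), with a 95% interval of -0.28 to 0.11. The interval does not reach the change of USP1, whose own interval ends at -1.10.

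Among the nucleases and their scaffold, FAN1, SLX4 and ERCC4 were lower. FAN1 read 13.32 and 13.27 in control cells and 12.68 and 12.52 in PAK1 shRNA cells, without overlap. Its log2 fold change was -0.70 (SE 0.08, 95% interval -0.90 to -0.50, limma adjusted p = 0.000319), or 61.6% of the control level. SLX4, the scaffold, read 11.10 and 10.86 against 10.40 and 10.53, also without overlap but with a wider spread between the controls. Its log2 fold change was -0.51 (SE 0.10, 95% interval -0.76 to -0.27, limma adjusted p = 0.00396), and with each probe's own variance in place of limma's moderated one the adjusted p was 0.111.

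ERCC4, also called XPF, is the catalytic subunit of the ERCC4-ERCC1 nuclease. Its probe A_32_P157481 read 8.01 and 8.16 in control cells and 7.43 and 7.46 in PAK1 shRNA cells, with a log2 fold change of -0.64 (SE 0.08, 95% interval -0.84 to -0.45, limma adjusted p = 0.000428). The probe A_33_P3243364 read 7.49 and 7.46 against 7.16 and 7.27, with -0.26 (SE 0.08, 95% interval -0.45 to -0.08, limma adjusted p = 0.022). The groups did not overlap for either probe. Both are dim, with raw signals of 115 to 310 on the 4 arrays over local backgrounds of 38 to 49, and the second probe lost its call under 6 of the alternatives, with adjusted p up to 0.314 under median centring and 0.0721, 0.0515 and 0.129 without control replicate 1, control replicate 2 and PAK1 shRNA replicate 1.

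ERCC1, the subunit that positions ERCC4 on DNA, was higher in PAK1 shRNA cells on both of its probes. A_33_P3228128 read 13.05 and 13.13 in control cells and 13.48 and 13.46 in PAK1 shRNA cells, with a log2 fold change of 0.38 (SE 0.08, 95% interval 0.20 to 0.56, limma adjusted p = 0.00378). A_33_P3365037 read 12.23 and 12.28 against 12.79 and 12.71, with 0.50 (SE 0.08, 95% interval 0.32 to 0.68, limma adjusted p = 0.00098). The groups did not overlap on either probe.

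MUS81, the catalytic subunit of another nuclease held by SLX4, read 12.98 and 12.79 in control cells and 13.43 and 13.43 in the PAK1 shRNA samples. This gave a log2 fold change of 0.55 (SE 0.09, 95% interval 0.34 to 0.75, limma adjusted p = 0.00133), or 146% of control, and with the probe's own variance in place of limma's moderated one the adjusted p was 0.0616. The rises of ERCC1 and MUS81 are relative to the bulk of the array. Before any scaling between arrays the PAK1 shRNA arrays were dimmer, with a median log2 difference of -0.33 over all tested probes. On that raw scale ERCC1 differed by -0.089 and -0.0012 on its 2 probes and MUS81 by 0.079, while every probe of the genes that fell was lower. The raw signals of A_33_P3228128 were 11202 and 9470 in control cells and 9756 and 9611 in PAK1 shRNA cells, which overlap.

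**Figure D2:**
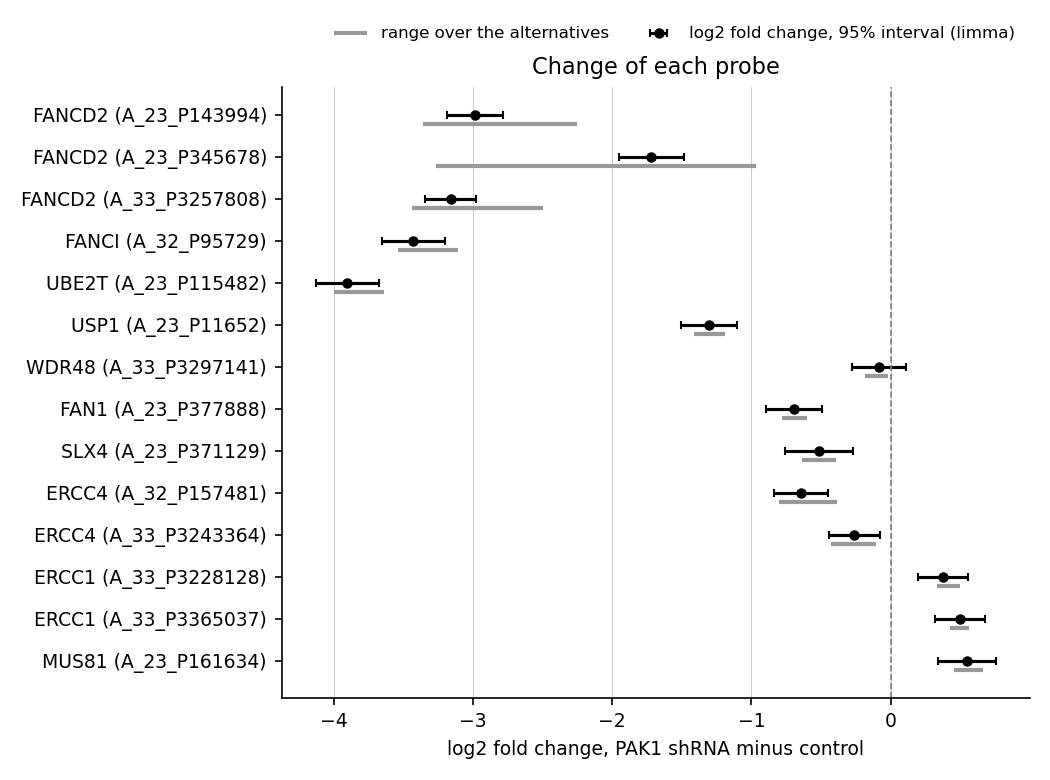
Log2 fold change, PAK1 shRNA minus control (horizontal axis), of each of the 14 probes (rows), with the limma estimate and its 95% interval in black and the range over the processing alternatives in grey. FANCD2, FANCI and UBE2T lie farthest to the left, WDR48 spans 0, and ERCC1 and MUS81 lie to the right of 0, while the FANCD2 probe A_23_P345678 has the widest range, from -3.26 to -0.97.

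**Figure D3:**
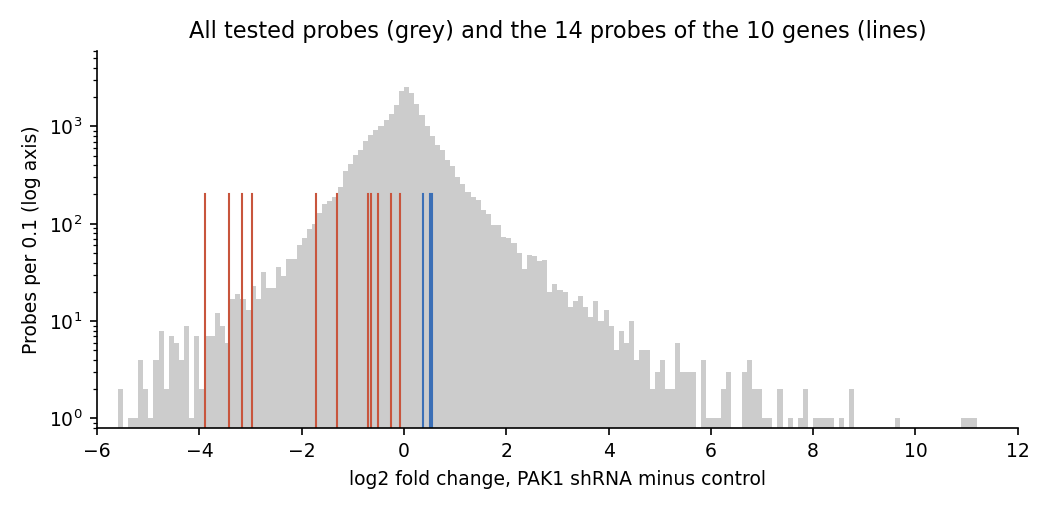
Number of probes per 0.1 of log2 fold change (log axis) for all 27420 tested probes in grey, with a line at each of the 14 probes, red where lower and blue where higher in PAK1 shRNA cells. UBE2T, FANCI and the brighter FANCD2 probes lie in the lower tail, and FAN1, SLX4, ERCC4, WDR48, ERCC1 and MUS81 lie among the bulk of probes.

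The other parts of the pathway were described by lists of genes, each gene by its brightest probe, beside the 31.9% lower and 31.2% higher among all genes and a median log2 fold change of 0.02. In the Fanconi anemia core complex, the ligase that works with UBE2T, 12 of 13 genes were lower, 0 higher and FANCF was not called (-0.19, limma adjusted p = 0.113). The median was -1.48, with FANCA, a core subunit, at -2.81 and C17orf70, also called FAAP100, at -0.35. Of 9 partners and substrates of USP1 and WDR48, 8 were lower and PHLPP1 was not called (0.23, limma adjusted p = 0.0856), with a median of -0.46. ATAD5, which brings USP1 to the sliding clamp, fell by 2.12 on the log2 scale, the clamp PCNA fell by 1.53, and ID2, an inhibitor of transcription factors that USP1 stabilizes, fell by 0.40. USP12 and USP46, the other ubiquitin proteases that WDR48 activates, fell by 0.46 and 0.45, and WDR20, a cofactor of these enzymes, by 0.42.

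Of 11 tested genes for other structure-specific nucleases, 9 were lower and 2 higher, with a median of -1.56. EXO1, which resects DNA ends, fell by 3.02. The obligate partners of MUS81 moved apart: EME1 had a log2 fold change of -2.64 (limma adjusted p = 9.97e-07) and EME2 of 1.96 (limma adjusted p = 5.81e-06). SLX1A, the nuclease that SLX4 activates, had -0.60 (limma adjusted p = 0.000314), and its near-identical copy SLX1B had no probe of its own name, so their transcripts cannot be told apart. Of 14 homologous recombination genes that act after the incisions, 10 were lower, 1 was higher and 3 were not called, with a median of -1.18, and the helicase BRIP1 was the higher gene, at 1.19.

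Nucleotide excision repair, which also uses ERCC4-ERCC1, had 10 lower, 3 higher and 5 uncalled genes of 18 tested, and a median of -0.27. LIG1, the ligase that also joins replicated strands, fell by 2.30 and ERCC6, which acts at stalled transcription, rose by 0.85. In translesion synthesis, which copies past an unhooked crosslink, 6 of 12 genes were lower, 2 higher and 4 not called, with a median of -0.21. MAD2L2, which lacked a value on a PAK1 shRNA array, fell by 1.75. REV3L, the catalytic subunit that binds MAD2L2, rose by 1.12. Some genes stand in more than 1 list, such as ERCC5 among the nucleases and the excision repair genes.

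Most of the listed cell cycle genes were also lower in PAK1 shRNA cells. Of 42 S phase genes 41 were lower and BRIP1 was higher, with a median log2 fold change of -2.25 and the lowest value in the helicase BLM, at -4.05. Of 54 G2/M genes 53 were lower and 0 higher, with a median of -3.57, from BIRC5, a chromosomal passenger, at -5.31 to the chromatin factor CTCF at -0.82. The summed linear level of the S phase genes with values on all arrays was 259340.0 and 279490.0 in control cells and 63295.0 and 62452.0 in PAK1 shRNA cells, or 23.3% of control. That of the G2/M genes was 25% of control. Such sums are weighted to bright genes. RANGAP1, the G2/M gene that was not called (0.15, limma adjusted p = 0.108), is among the brightest of its list. Its mean log2 intensity was 16.49 in control cells and 16.65 in PAK1 shRNA cells. The sum therefore understates the fall of a typical G2/M gene, which the median of -3.57 describes. The falls of FANCD2, FANCI and UBE2T on their brightest probes were larger than the median of the S phase list and those of USP1, FAN1, SLX4 and ERCC4 were smaller. Against the median of the G2/M list only the fall of UBE2T was larger, and those of FANCD2 and FANCI were smaller. The part of a change in the cell cycle in these values was not tested. The summed level over markers with values on all arrays was 85.7% of control for the basal epithelial markers. It was 94.9% for 4 of 6 luminal, 109% for 3 of 5 leukocyte and 78.5% for 3 of 3 endothelial markers. The bright markers KRT18 (luminal) and CD14 (leukocyte) lacked a value on an array and are not in the sums. Their log2 fold changes were 0.50 and 1.27. Among the endothelial markers PECAM1 had -1.56, CDH5 0.15 and VWF 0.37. The summed level of the 4 fibroblast markers with values on all arrays was 182% of control. Of the 4, LUM had a log2 fold change of 1.79, DCN, a matrix proteoglycan, 0.88 and COL1A1, a collagen, 0.87. PDGFRB, a growth factor receptor, had -0.58 and was not well above background on all 4 arrays. The part of other cell types in the results was not tested either.

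**Figure D4:**
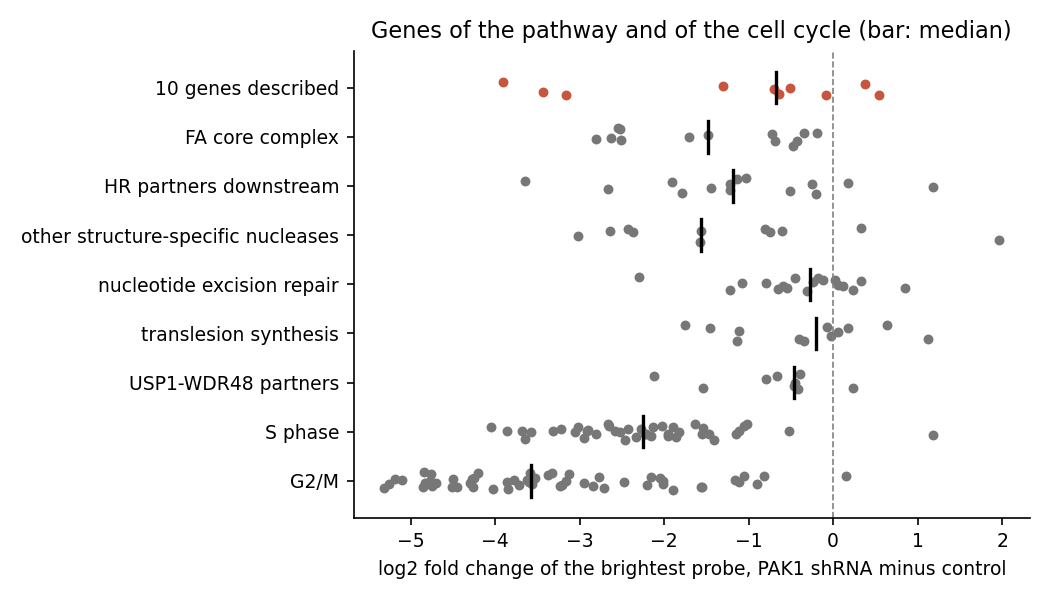
Log2 fold change of the brightest probe of each gene, PAK1 shRNA minus control (horizontal axis), for the 10 genes described (red) and for each list (grey), with a bar at the median. The 10 genes spread from UBE2T to MUS81, and nearly all S phase and G2/M genes lie left of 0.

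Promoter sequences were taken from RefSeq (GRCh38.p14), with 9 of the 10 genes matched by symbol, in 14 entries. FANCI has no entry in the table used. The 250 bases before the start were searched on both strands for words linked to cell cycle transcription: the E2F words TTTCCCGC, TTTGGCGC, TTTCGCGC and TTTGCCGC, the CHR element TTTGAA and the box CCAAT. The E2F words were in 2.79% of all 35116 promoters and in 0 of the 9 genes. TTTGAA was in 13.3% of all promoters and in 3 of the 9 genes, and CCAAT in 32% and in 4 of the 9 genes. A gene can have several entries, and by entry, as in the share of all promoters, the counts were 3 of 14 and 4 of 14. TTTGAA was found for UBE2T, USP1 and ERCC1, and CCAAT for UBE2T, USP1, ERCC1 and MUS81, so both words occur before genes that fell and before genes that rose.

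The promoters of FANCD2 and UBE2T are shown because these genes fell most among those with an entry. They are on the strand of the gene, 250 bases before the start and the first 20 after it, with the words found in capitals. In FANCD2 the capitals mark GCGGGAAA, the opposite strand of TTTCCCGC, which begins at position -2, counted from the start, and so lies partly outside the 250 bases searched. With the 50 bases after the start included, a window chosen after the data were seen, the E2F words were in 3.31% of promoters and in 1 of the 9 genes. In UBE2T the capitals mark TTTGAA at position -153 and CCAAT at positions -124 and -73. These matches are descriptions of the letters, and no binding was measured here.
FANCD2 promoter (chr3:10026187-10026456, plus strand, GRCh38.p14): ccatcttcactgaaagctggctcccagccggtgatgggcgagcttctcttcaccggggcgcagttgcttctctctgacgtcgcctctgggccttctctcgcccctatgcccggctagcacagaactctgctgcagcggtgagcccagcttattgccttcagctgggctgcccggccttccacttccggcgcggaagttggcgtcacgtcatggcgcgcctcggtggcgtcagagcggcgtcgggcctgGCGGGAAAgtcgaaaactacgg
UBE2T promoter (chr1:202341917-202342186, minus strand, GRCh38.p14): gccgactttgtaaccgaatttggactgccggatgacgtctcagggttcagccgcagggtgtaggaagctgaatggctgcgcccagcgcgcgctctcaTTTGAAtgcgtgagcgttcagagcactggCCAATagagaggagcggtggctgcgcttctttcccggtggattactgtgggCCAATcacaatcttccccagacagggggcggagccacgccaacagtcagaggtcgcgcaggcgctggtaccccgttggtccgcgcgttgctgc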

How the data were processed

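RNA of 2 control and 2 PAK1 shRNA samples was hybridized in 1 colour. The authors deposited the raw intensity of each spot from Agilent Feature Extraction (version 9.5 in the submitters' processing notes), and a table of log2 values whose normalization is not given in the sources used here beyond the normexp and quantile steps of the methods, used as an alternative. The methods name normexp, quantile normalization and limma. Here normexp (offset 50) was applied to the mean signal over the median local background, its parameters estimated without spots of flagged background, since those moved the background mean to -666 and -740 on the control arrays against -10.7 and -10.2 on the others. Non-control spots were quantile normalized, flagged spots left out and spots of a probe averaged, and probes were kept if both arrays of either group called them well above background, which left 1117 of 27420 with 3 arrays, none among the 14. The offset compresses the changes of dim probes. limma 3.58.1 in R 4.3.3 was run per probe with Benjamini-Hochberg adjustment, and was tested on simulated data. In the simulation with variances drawn from the observed ones, the share of false calls was above the 0.05 aimed at, so adjusted p-values may be too small.

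Genes were named by the rule of all 14 probes, and in each list the lowest and highest called gene well above background on all 4 arrays. EME1, SLX1A, PCNA, WDR20, USP12, USP46 and ERCC5 were named outside this rule, after their values were seen. So were genes singled out as not called and single cell type markers. 1 further gene is not reported here. The genes and lists were chosen with earlier results of these data known. Two-sided tests were used throughout. The number of arrays limits the precision. No block for the slide was possible with 1 slide.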

Additional observations from a re-analysis of the deposited data

How the results depend on the processing

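Over 19 alternatives, 254 of 262 values for the 14 probes gave the direction and the call reported, 8 lost the call and 0 changed sign. The lost calls were 6 for ERCC4 A_33_P3243364 and 1 each for SLX4 and MUS81 under the unpaired t-test. That t-test called 5661 lower and 5203 higher probes after adjustment. The median over the 14 probes was -0.56 with normexp estimated on all spots, by whose construction dim probes are compressed. At 2-fold 6 of the 14 probes (5 with normexp estimated on all spots) and 2407 of all probes were lower. On the raw scale without scaling between arrays, added after the data were seen, ERCC1 turned to -0.089 for A_33_P3228128 and -0.0012 for A_33_P3365037, since the PAK1 shRNA arrays were dimmer. Median centring gave all probes a median of 0.124, and scaling the processed signal to its 75th percentile 0.102, against 0.01, and the changes of ERCC1 and MUS81 stayed larger than these. Leaving out any array, with the values normalized over all 4 and the lone array assumed to vary like the other group, changed only the call of ERCC4 A_33_P3243364. Arrays sharing a replicate number deviated from their group means without relation (r = 0.011 over 26303 probes), and the samples are not taken as paired. With the replicate block 10 of the 14 probes were lower and 3 higher, 8639 and 8379 of all probes, and no call among the 14 changed.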
